A study of Mus musculus with 6 samples.

Results

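The cell cycle and proliferation genes are 37 genes chosen by symbol, and all 37 were found among the 55401 genes counted in subcutaneous white adipose tissue (scWAT). They are *Ccnd1*, *Ccnd2*, *Ccnd3*, *Cdk4* and *Cdk6*, which act at the start of the cycle, *Ccne1*, *Ccne2*, *Ccna2* and *Cdk2*, which act in DNA replication, and *Ccnb1*, *Ccnb2* and *Cdk1*, which act in mitosis. They also comprise the inhibitors *Cdkn1a*, *Cdkn1b*, *Cdkn2a* and *Cdkn2c*, the helicase subunits *Mcm2* to *Mcm7*, the DNA synthesis genes *Pcna*, *Rrm1*, *Rrm2* and *Tyms*, the mitosis and chromosome genes *Mki67*, *Top2a*, *Birc5*, *Aurka*, *Aurkb*, *Bub1*, *Bub1b*, *Plk1* and *Cenpf*, and the transcription factors *E2f1* and *Foxm1*. Gene lists of mitosis, of DNA replication, of the RB, E2F and DREAM proteins and of p53 targets and cell cycle arrest were examined beside them.

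RNA was sequenced from scWAT of 3 control mice and 3 YT-AKO mice, all males aged 8 weeks. Both groups carried floxed alleles of *Yap1* and *Wwtr1* (the gene of TAZ), the transcriptional co-activators that the Hippo pathway restrains. The YT-AKO mice also carried AdipoqCre, a Cre recombinase under a promoter active in mature adipocytes, so the other cell types of the fat pad keep their alleles. The control genotype is WT in the sample labels, and the study's methods describe these mice as YT-FF, floxed without Cre, the name used here.

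Cyclins switch on cyclin-dependent kinases (CDKs) in sequence, the D cyclins with CDK4 and CDK6 acting on the retinoblastoma protein, which releases E2F factors to drive the genes of DNA synthesis. The DREAM complex holds the genes of mitosis silent in resting cells, and FOXM1 turns them on later in the cycle. CDK inhibitors of the CIP/KIP and INK4 families hold this sequence back, and INK4 and CIP/KIP proteins are also abundant in differentiated cells that no longer divide, among them adipocytes.

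Each library held 17740987 to 21838493 counted fragments. Values below are CPM (counts relative to library size) scaled with edgeR's TMM factors, and a gene is called higher or lower, and said to rise or fall, where its p in edgeR's quasi-likelihood test, adjusted by Benjamini-Hochberg over the 16807 genes above a minimum count, was under 0.05. Of the targeted genes, *Yap1* fell from 69.1, 57.1 and 66.7 CPM in YT-FF 1, 2 and 3 to 37.7, 29.0 and 31.3 CPM in the libraries labelled YT-AKO 1, 2 and 3. *Wwtr1* went against the label, with 77.5, 76.0 and 98.8 CPM in YT-FF and 175, 133 and 161 CPM in the libraries labelled YT-AKO, and every direction given below follows those labels. The counts sum all exons of a gene, so loss of single exons cannot be seen in them. By immunoblot, the paper reports clearly less YAP and TAZ protein in scWAT of YT-AKO mice, whereas the values here are of RNA. YT-AKO 2 stood apart from the other libraries, with log2 CPM correlations across genes of 0.883 to 0.909 with the YT-FF libraries, where YT-AKO 1 and 3 had 0.949 to 0.967.

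The sequences of promoters whose genes frame the results are shown first, since genes of replication and mitosis are known to share short promoter elements. RefSeq windows of 300 bases, from 250 before to 50 after the transcript start, were found for 30 of the 37 genes, and the most upstream window was taken for each gene. They were searched on both strands for the cell cycle element TTTGAA, for the E2F letters TTTGGCGC, TTTCGCGC and TTTCCCGC, for CCAAT, and for ACATGT, which forms the middle of many p53 half-sites and was chosen after the *Cdkn1a* window had been read. Capitals mark matches on either strand (GRCm38.p6). *Top2a* carries TTTGAA and CCAAT, *Cdk1* these and an E2F match, *Cdk2* an E2F match and CCAAT, *Rrm2* CCAAT, and *Cdkn1a* ACATGT at 2 places.
Top2a, chr11:99024140-99024439, minus strand: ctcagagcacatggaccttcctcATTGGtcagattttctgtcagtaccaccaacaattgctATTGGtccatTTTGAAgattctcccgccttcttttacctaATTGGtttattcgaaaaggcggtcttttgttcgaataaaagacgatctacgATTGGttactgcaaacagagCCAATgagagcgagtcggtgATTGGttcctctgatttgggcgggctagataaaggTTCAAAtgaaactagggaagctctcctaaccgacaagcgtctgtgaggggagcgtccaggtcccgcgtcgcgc
Cdk1, chr10:69352863-69353162, minus strand: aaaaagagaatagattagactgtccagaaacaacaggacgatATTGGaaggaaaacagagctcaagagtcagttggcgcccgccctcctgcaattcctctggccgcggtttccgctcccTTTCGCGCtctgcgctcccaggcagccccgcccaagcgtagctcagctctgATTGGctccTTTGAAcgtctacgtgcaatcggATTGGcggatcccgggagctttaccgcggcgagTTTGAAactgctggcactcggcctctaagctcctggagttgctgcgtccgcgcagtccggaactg
Rrm2, chr12:24708004-24708303, plus strand: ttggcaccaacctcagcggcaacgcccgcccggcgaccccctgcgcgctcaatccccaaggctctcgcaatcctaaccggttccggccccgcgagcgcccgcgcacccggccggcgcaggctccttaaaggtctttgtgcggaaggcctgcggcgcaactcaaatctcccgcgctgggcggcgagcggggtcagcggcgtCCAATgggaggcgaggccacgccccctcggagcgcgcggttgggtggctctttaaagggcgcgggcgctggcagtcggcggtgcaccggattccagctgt
Cdk2, chr10:128705002-128705301, minus strand: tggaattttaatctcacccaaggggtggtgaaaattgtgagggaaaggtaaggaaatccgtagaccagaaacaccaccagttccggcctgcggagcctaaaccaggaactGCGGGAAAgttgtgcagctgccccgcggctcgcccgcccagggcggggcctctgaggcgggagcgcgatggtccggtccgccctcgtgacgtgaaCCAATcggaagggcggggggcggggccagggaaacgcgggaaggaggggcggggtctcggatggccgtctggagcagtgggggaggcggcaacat
Cdkn1a, chr17:29090729-29091028, plus strand: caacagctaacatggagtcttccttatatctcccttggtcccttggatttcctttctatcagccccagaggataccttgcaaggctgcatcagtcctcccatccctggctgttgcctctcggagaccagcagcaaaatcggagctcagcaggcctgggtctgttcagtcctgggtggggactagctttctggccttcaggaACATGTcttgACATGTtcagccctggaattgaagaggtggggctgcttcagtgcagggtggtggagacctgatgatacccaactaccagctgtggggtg

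Across the 30 windows, TTTGAA occurred in 9 (30%), against 18.2% of 27026 promoters in RefSeq, and CCAAT in 20 (66.7%), against 38%. At least 1 of the E2F sequences occurred in 7 windows (23.3%), against 1.91% of all promoters, and 4 of those 7 belong to *Mcm3*, *Mcm5*, *Mcm6* and *Mcm7*. In *Mcm5*, *Mcm6* and *Mcm7* matches of different motifs overlap. ACATGT stood at 2 or more places in 0.366% of all promoters and, among the 30 windows, in that of *Cdkn1a* alone. *Cdkn2c* held none of these letters. A match is a stretch of letters in this window and no evidence that a factor binds there.

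All 37 genes passed the filter on low counts, with 7 to 6141 counts per library and at least 10 counts in every library for 36 of them. In the libraries labelled YT-AKO, 2 genes rose (5.41%) and 5 fell (13.5%), against 12.6% of all tested genes that rose and 9.01% that fell. *Cdkn1a* and *Cdkn2c*, both CDK inhibitors, rose, and the inhibitor *Cdkn1b* fell together with *Cdk2*, *Rrm2*, *Top2a* and *Foxm1*. The remaining 30 genes did not pass the test. At an unadjusted p under 0.05 in edgeR's quasi-likelihood test, 3 genes were higher and 12 lower, where 22.2% and 18.6% of all tested genes were. The log2 fold change was negative for 26 genes and positive for 11, with a median of -0.38, while the median of all tested genes was -0.02. For 4 genes all 3 libraries labelled YT-AKO were higher than all 3 of YT-FF, and for 14 they were lower, where 25.7% and 25.8% of all tested genes were separated in these directions. In tissue, fewer cells of a type and less RNA per cell cannot be told apart.

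**Figure D1:**
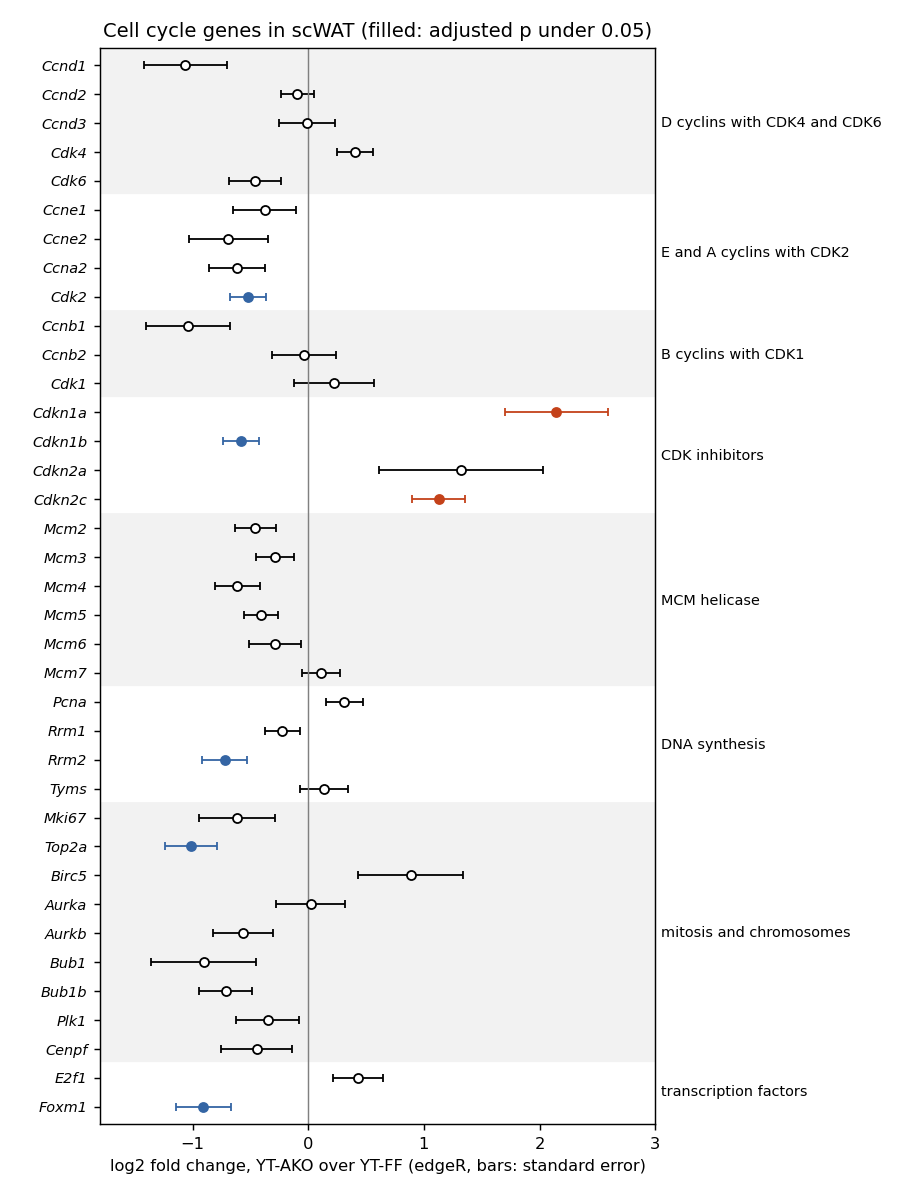
Log2 fold change of YT-AKO over YT-FF for each of the 37 genes, ordered by role, with bars of 1 standard error from edgeR. Filled points passed an adjusted p of 0.05, red for *Cdkn1a* at 2.15 and *Cdkn2c* at 1.13 and blue for the 5 genes that fell, between -1.01 for *Top2a* and -0.52 for *Cdk2*.

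The CDK inhibitors held the largest difference among the 37 genes. *Cdkn1a* (ENSMUSG00000023067, chromosome 17, 29090976 to 29100727 of mm10) encodes p21, which binds cyclin-CDK complexes and PCNA and is a classic p53 target. It had 16.6, 14.9 and 32.5 CPM in YT-FF 1, 2 and 3 and 145, 86.9 and 50.5 CPM in YT-AKO 1, 2 and 3. The groups did not overlap, and the lowest YT-AKO library stood above the highest YT-FF library, with a wide spread among the YT-AKO libraries. On the log2 scale the difference was 2.15 (standard error 0.443, adjusted p = 0.0226, edgeR with Benjamini-Hochberg adjustment). YT-AKO 1, the library highest in *Cdkn1a*, also held the most skeletal muscle RNA, with 2951 CPM summed over 6 muscle markers, against 110 to 403 CPM in YT-FF and 439 and 208 CPM in YT-AKO 2 and 3, and 1 of the 6 was called higher. Without YT-AKO 1 the difference of *Cdkn1a* was 1.70 on the log2 scale and passed the test. That fit leaves the muscle RNA of the other libraries in place. The part of muscle RNA in the level of *Cdkn1a* was not tested. *Cdkn1a* shares 7.68% of its exon bases with a neighboring gene, AC167363.2.

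*Cdkn2c* (ENSMUSG00000028551, chromosome 4, 109660876 to 109667189) encodes p18, an INK4 inhibitor of CDK4 and CDK6. Its level was 122, 117 and 158 CPM in YT-FF and 220, 284 and 363 CPM in YT-AKO, with no overlap. On the log2 scale the difference was 1.13 (standard error 0.230, adjusted p = 0.0221, edgeR with Benjamini-Hochberg adjustment). Per length it was the most abundant of the 37 genes in both groups, at 186 ± 22.7 TPM in YT-FF and 260 ± 95.2 TPM in YT-AKO (mean ± SD, n = 3). TPM divides counts by exon length before scaling each library. On that scale the groups overlapped for *Cdkn2c*, with YT-FF 3 at 212 TPM above YT-AKO 2 at 185 TPM. *Cdkn1a* moved from rank 13 of 37 in YT-FF, at 22.5 ± 9.12 TPM, to rank 4 in YT-AKO, at 65.2 ± 42.4 TPM.

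*Cdkn1b* (ENSMUSG00000003031, chromosome 6, 134920401 to 134925513) encodes p27, the CIP/KIP inhibitor typical of resting cells, and it moved the other way. It had 108, 106 and 89.0 CPM in YT-FF and 74.8, 63.5 and 64.0 CPM in YT-AKO, again without overlap (log2 fold change -0.58, standard error 0.156, adjusted p = 0.0383, edgeR with Benjamini-Hochberg adjustment). *Cdkn2a*, whose locus encodes p16 and ARF, was the sparsest of the 37 genes, with 7, 24 and 11 counts in YT-FF and 13, 53 and 16 in YT-AKO. Its groups overlapped and it did not pass the test (log2 fold change 1.32, standard error 0.709). Summed over the 4 inhibitors, the level was 246, 239 and 280 CPM in YT-FF and 441, 437 and 478 CPM in YT-AKO.

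The balance between inhibitors was also compared inside each library, as ratios of counts that no scaling between libraries can alter. They still carry the relation of fold changes to exon length given below, and *Cdkn2c* has 2686 exon bases where *Cdk6* has 13989. These ratios were chosen after the values had been seen. *Cdkn1a* counts were 0.155, 0.141 and 0.365 times those of *Cdkn1b* in YT-FF and 1.94, 1.37 and 0.789 times in YT-AKO. *Cdkn2c* counts were 4.32, 4.81 and 8.04 times those of *Cdk6*, a kinase it inhibits, in YT-FF and 11.8, 21.3 and 17.6 times in YT-AKO. For *Cdk4*, the other kinase, the ratio went from 1.74, 1.80 and 2.19 to 2.62, 2.69 and 4.26. None of these ratios overlapped between the groups, and each gave p = 0.1 in a two-sided exact permutation test, the smallest value that 3 libraries against 3 allow. *Cdkn1a* and *Cdkn2c* rose, whereas *Cdkn1b* fell and *Cdk6* had a negative fold change. The separation of the ratios to *Cdkn1b* and *Cdk6* therefore follows largely from their choice.

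**Figure D2:**
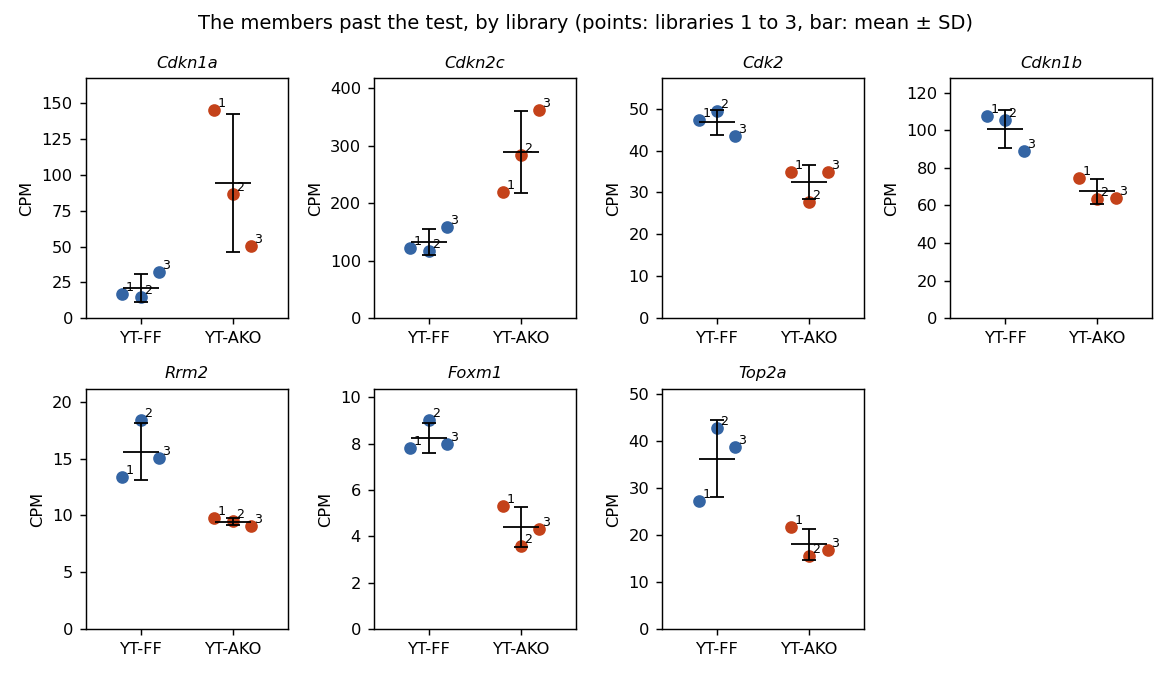
CPM of the 7 genes that passed the test, by library, with points for libraries 1 to 3 and bars for mean ± SD (n = 3). The groups do not overlap for any of the 7, and *Cdkn1a* spreads from 50.5 to 145 CPM among the YT-AKO libraries while *Rrm2* stays between 9.10 and 9.77.

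Among the genes that act at the start of the cycle, the D cyclins and their kinases, none passed the test. *Ccnd1*, cyclin D1, had 42.4, 44.1 and 34.6 CPM in YT-FF and 27.6, 9.14 and 21.2 CPM in YT-AKO, with every YT-AKO library below every YT-FF library. Its log2 fold change of -1.06 carried a standard error of 0.361 (adjusted p = 0.0673, edgeR with Benjamini-Hochberg adjustment), and it was called lower with DESeq2, with limma-voom, with no filter and without YT-AKO 1 or YT-AKO 2. Of its exon bases, 23.4% overlap another gene, LTO1, and fragments there were not counted. *Ccnd2*, cyclin D2, was at 172 ± 8.14 and 161 ± 5.52 CPM, and *Ccnd3*, cyclin D3, at 119 ± 14.2 and 118 ± 35.0 CPM (YT-FF and YT-AKO, mean ± SD, n = 3). Both overlapped between the groups.

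The level of *Ccnd1* beside the other D cyclins can be read within a library, in ratios chosen after the values had been seen. *Ccnd1* counts were 0.242, 0.248 and 0.212 times those of *Ccnd2* in YT-FF and 0.174, 0.0581 and 0.127 times in YT-AKO. Against *Ccnd3* they were 0.346, 0.428 and 0.264 times as many in YT-FF and 0.193, 0.118 and 0.160 times in YT-AKO. Neither ratio overlapped (two-sided exact permutation test, p = 0.1, the smallest possible). *Ccnd1* was already separated between the groups by itself, so these ratios largely repeat that separation. The kinase *Cdk4* had 70.0, 64.9 and 72.3 CPM in YT-FF and 84.2, 105 and 85.3 CPM in YT-AKO, without overlap, and did not pass the test (log2 fold change 0.41, standard error 0.155). It shares 19.7% of its exon bases with *Tspan31*. *Cdk6*, its partner kinase, had 28.2, 24.3 and 19.7 CPM against 18.7, 13.3 and 20.6 CPM, and the groups overlapped.

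The scale matters for *Cdk4*, among other genes. Its log2 fold change was positive in all 16 alternatives of the test, but in TPM it was at 80.6 ± 2.04 TPM in YT-FF and at 66.8 ± 8.67 TPM in YT-AKO (mean ± SD, n = 3). *Pcna*, the sliding clamp of DNA polymerases, was also lower on that scale, with 119 ± 1.66 TPM in YT-FF and 92.1 ± 11.3 TPM in YT-AKO but 73.2, 73.2 and 79.7 CPM against 88.1, 110 and 82.8 CPM. Neither gene passed the test. *Mcm7*, *Cdk1*, *Tyms*, *E2f1* and *Aurka* likewise had positive log2 fold changes but lower mean TPM in YT-AKO. *Cdkn1a*, *Cdkn2a*, *Cdkn2c* and *Birc5* were higher on both scales. TPM carries no TMM factors, which were 1.07 to 1.16 in YT-FF and 0.777 to 0.955 in YT-AKO.

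The E and A cyclins and their kinase CDK2, which start and carry DNA replication, were together lower in each YT-AKO library. Summed, they had 68.4, 76.8 and 73.2 CPM in YT-FF and 52.7, 47.5 and 50.9 CPM in YT-AKO. *Cdk2* (ENSMUSG00000025358, chromosome 10, 128697939 to 128705031) alone passed the test, with 47.2, 49.4 and 43.4 CPM in YT-FF and 34.8, 27.8 and 34.8 CPM in YT-AKO. The difference was -0.52 on the log2 scale (standard error 0.157), and its adjusted p of 0.0499 from edgeR with Benjamini-Hochberg adjustment lay at the threshold. *Cdk2* also contributes most of the sum.

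The cyclins of this group were scarcer. *Ccna2*, cyclin A2, had 9.08, 11.7 and 14.2 CPM in YT-FF and 8.37, 8.08 and 6.26 CPM in YT-AKO. *Ccne2*, cyclin E2, had 4.30, 5.27 and 5.87 CPM against 4.01, 1.89 and 3.66 CPM. Both were separated between the groups by a narrow gap and missed the threshold, with log2 fold changes of -0.62 (standard error 0.242) and -0.69 (0.343). Parts of their exons overlap *Exosc9* (12.5%) and *Ints8* (17.4%). *Ccne1*, cyclin E1, had 7.80, 10.4 and 9.73 CPM against 5.52, 9.73 and 6.20 CPM, with overlap.

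The 6 subunits of the MCM helicase, which unwinds DNA at replication forks, had a median log2 fold change of -0.35, and none passed the test. For *Mcm2*, *Mcm3*, *Mcm4* and *Mcm5*, every YT-AKO library lay below every YT-FF library. *Mcm4* had the largest difference, with 33.0, 37.2 and 28.1 CPM in YT-FF and 24.4, 17.0 and 23.0 CPM in YT-AKO (log2 fold change -0.61, standard error 0.197, adjusted p = 0.0597, edgeR with Benjamini-Hochberg adjustment). *Mcm5* was the most even, with 27.6, 29.7 and 28.9 CPM against 22.0, 22.4 and 20.5 CPM. *Mcm6* was at 23.5 ± 3.90 and 19.2 ± 4.47 CPM and *Mcm7* at 38.5 ± 3.29 and 41.6 ± 6.35 CPM, both with overlap. *Mcm7* shares 12.6% of its exon bases with *Ap4m1*, and 16.5% of its 50-base stretches recur in the copy Gm5487.

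The ratio of *Mcm4* to *Mcm7* was read within each library. This pair was chosen after the values had been seen. *Mcm4* had the largest negative fold change of the subunits and only *Mcm7* had a positive change. The separation of this pair therefore follows largely from its choice. *Mcm4* counts were 0.890, 1.03 and 0.665 times those of *Mcm7* in YT-FF and 0.617, 0.348 and 0.627 times in YT-AKO, without overlap (two-sided exact permutation test, p = 0.1, the smallest possible). The summed level of the 6 subunits was 173, 190 and 182 CPM in YT-FF and 150, 162 and 135 CPM in YT-AKO.

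Of the DNA synthesis genes, *Rrm2* fell. *Rrm2* (ENSMUSG00000020649, chromosome 12, 24708241 to 24714146) encodes the small subunit of ribonucleotide reductase that is made in S phase. It had 13.4, 18.4 and 15.0 CPM in YT-FF and 9.77, 9.50 and 9.10 CPM in YT-AKO, a tight group below all controls (log2 fold change -0.72, standard error 0.195, adjusted p = 0.0384, edgeR with Benjamini-Hochberg adjustment). *Rrm1*, the large subunit, had 31.3, 39.8 and 38.0 CPM against 30.2, 31.7 and 31.6 CPM, and the groups overlapped. *Rrm2* counts were 0.429, 0.461 and 0.396 times those of *Rrm1* in YT-FF and 0.323, 0.300 and 0.288 times in YT-AKO, without overlap. This ratio too was chosen after the values had been seen, and *Rrm2* was already separated between the groups by itself. *Tyms*, thymidylate synthase, was at 7.50 ± 0.680 and 8.25 ± 0.896 CPM. For *Pcna*, 19.1% of its 50-base stretches recur in other genes.

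The B cyclins and CDK1, the engine of mitosis, gave no common direction. *Cdk1* had 5.24, 9.36 and 8.96 CPM in YT-FF and 7.09, 13.4 and 7.03 CPM in YT-AKO. *Ccnb1*, cyclin B1, had 4.09, 8.13 and 8.60 CPM against 3.14, 4.42 and 2.54 CPM, and *Ccnb2*, cyclin B2, 4.18, 6.02 and 6.75 CPM against 5.47, 6.49 and 4.55 CPM. All 3 overlapped between the groups, and their log2 fold changes were 0.22, -1.04 and -0.04. Of the 50-base stretches of *Ccnb1*, 18.9% recur in the pseudogene Ccnb1-ps.

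Among the genes of mitosis and chromosome structure, *Top2a* fell by more than any other of the 37 genes that passed the test. *Top2a* (ENSMUSG00000020914, chromosome 11, 98992943 to 99024189) encodes topoisomerase II alpha, which untangles sister chromatids. It had 27.2, 42.8 and 38.8 CPM in YT-FF and 21.7, 15.5 and 16.7 CPM in YT-AKO, without overlap (log2 fold change -1.01, standard error 0.226, adjusted p = 0.0258, edgeR with Benjamini-Hochberg adjustment). *Mki67*, the Ki-67 marker of cycling cells, had 34.8, 60.9 and 45.6 CPM against 28.0, 44.6 and 19.6 CPM, with overlap and a log2 fold change of -0.62 (standard error 0.325). The 2 genes ranked the libraries differently, since YT-AKO 2 held the lowest *Top2a* but more *Mki67* than YT-FF 1.

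*Bub1b* and *Aurkb*, a spindle checkpoint kinase and a kinase that corrects chromosome attachment, were also separated between the groups. *Bub1b* had 8.18, 11.4 and 11.7 CPM in YT-FF and 6.45, 6.78 and 5.85 CPM in YT-AKO (log2 fold change -0.71, standard error 0.226, adjusted p = 0.0569, edgeR with Benjamini-Hochberg adjustment). *Aurkb* had 5.80, 8.17 and 7.88 CPM against 5.64, 3.95 and 5.14 CPM. Neither passed the test, and the gap for *Aurkb* was small.

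The others overlapped. *Bub1*, the partner checkpoint kinase, was at 4.17 ± 1.69 and 2.23 ± 1.02 CPM, *Plk1*, a mitotic kinase, at 6.12 ± 1.51 and 4.79 ± 0.601 CPM, *Cenpf*, a kinetochore protein, at 5.60 ± 1.05 and 4.11 ± 1.10 CPM, and *Aurka*, the centrosome kinase, at 4.93 ± 0.919 and 5.01 ± 1.34 CPM. *Birc5*, survivin, stood out for a single library, with 4.48, 7.03 and 7.52 CPM in YT-FF and 8.55, 20.5 and 6.15 CPM in YT-AKO. YT-AKO 2 was the highest of all libraries for 8 of the 37 genes, among them *Birc5*, *Cdk1* and *Cdkn2a*, and the lowest for 14, among them *Ccnd1*, *Cdk2*, *Cdkn1b*, *Top2a* and *Foxm1*. YT-FF 2 was the highest for 17 and the lowest for 7.

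**Figure D3:**
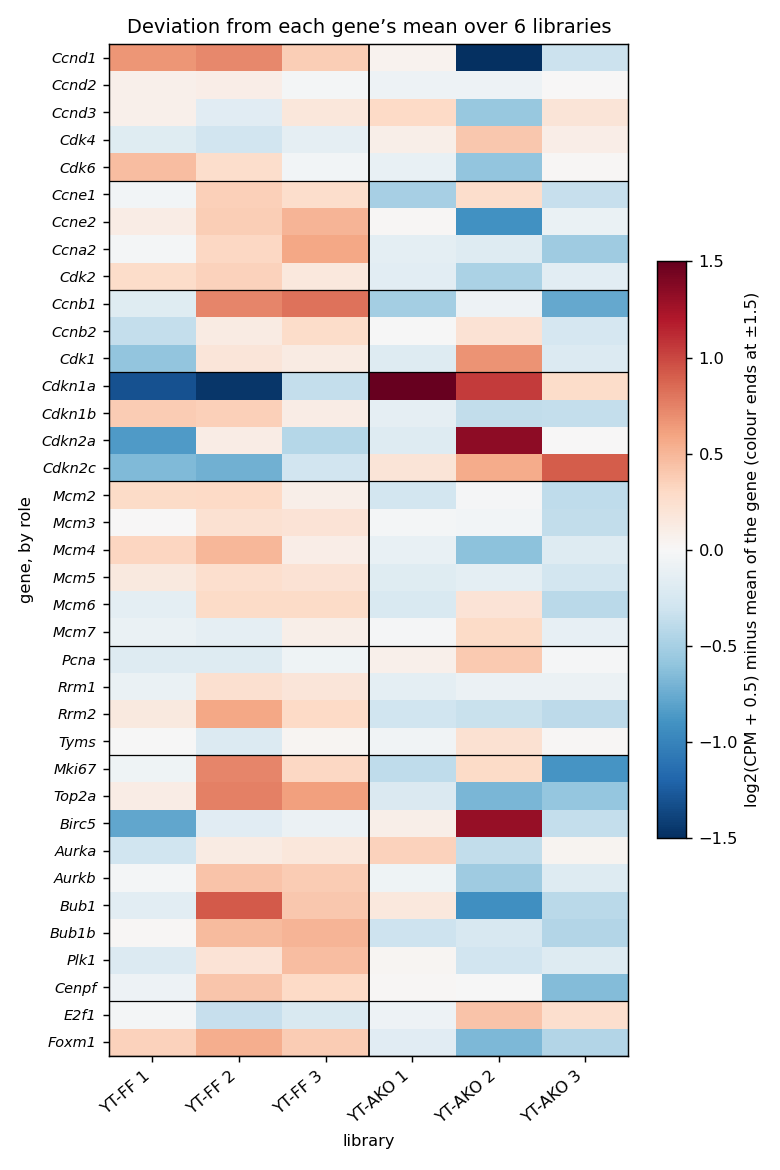
Deviation of log2(CPM + 0.5) from each gene's mean over the 6 libraries, for the 37 genes by role, with the YT-FF libraries left of the vertical line. *Top2a*, *Foxm1*, *Cdk2* and *Rrm2* are above their mean in each YT-FF library and below it in each YT-AKO library, and YT-AKO 2 is at an extreme for *Ccnd1*, *Cdkn2a* and *Birc5*.

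The transcription factors gave opposite signs. *Foxm1* (ENSMUSG00000001517, chromosome 6, 128362967 to 128376146), which drives genes of mitosis, had 7.80, 9.01 and 7.98 CPM in YT-FF and 5.29, 3.60 and 4.31 CPM in YT-AKO, without overlap (log2 fold change -0.91, standard error 0.240, adjusted p = 0.0368, edgeR with Benjamini-Hochberg adjustment). *E2f1*, an activator of S phase genes, had 10.4, 8.26 and 8.96 CPM against 10.1, 14.4 and 12.7 CPM, and the groups overlapped. Inside each library, *Foxm1* counts were 0.750, 1.09 and 0.891 times those of *E2f1* in YT-FF and 0.526, 0.249 and 0.340 times in YT-AKO (two-sided exact permutation test, p = 0.1, the smallest possible). *Top2a* counts were likewise 5.19, 4.58 and 4.33 times those of *Cdk1* in YT-FF and 3.06, 1.16 and 2.38 times in YT-AKO. The exact permutation test gave the same p, whereas the ratio of *Top2a* to *Mki67* overlapped. These pairs were chosen after the values had been seen. *Foxm1* and *Top2a* fell while *E2f1* and *Cdk1* had positive fold changes, so their separation follows largely from that choice.

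The 4 further gene lists place these values among more of the pathway. In the list of RB, E2F and DREAM proteins, 4 of 18 tested genes fell (22.2%, against 9.01% of all tested genes) and 0 rose (12.6% of all), with a median log2 fold change of -0.27. The pocket proteins *Rb1*, *Rbl1* and *Rbl2*, which bind E2F factors, and *Lin54*, the DNA-binding subunit of DREAM, made up the 4. *Rb1* had 74.4, 72.1 and 93.0 CPM in YT-FF and 48.7, 42.3 and 49.0 CPM in YT-AKO (log2 fold change -0.77). *Rbl1* went from 30.1, 34.4 and 30.4 to 17.9, 8.91 and 14.8 CPM (-1.19), *Rbl2* from 63.6, 64.0 and 61.9 to 44.8, 25.4 and 41.2 CPM (-0.77), and *Lin54* from 14.5, 16.0 and 15.6 to 10.1, 7.08 and 7.98 CPM (-0.88). None of the 4 overlapped between the groups, and their adjusted p was 0.0236, 0.0246, 0.0451 and 0.0276 from edgeR with Benjamini-Hochberg adjustment.

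Of 38 DNA replication genes outside the 37, 2 rose and 2 fell, and the median was -0.13. These are 5.26% each way, below the 12.6% and 9.01% of all tested genes. *Pole*, the catalytic subunit of the leading-strand polymerase, fell from 8.40, 10.8 and 10.1 to 3.78, 3.42 and 3.96 CPM (log2 fold change -1.39, adjusted p = 0.0177, edgeR with Benjamini-Hochberg adjustment), and *Hells*, a chromatin remodeler, from 8.69, 11.6 and 10.5 to 5.64, 2.77 and 4.73 CPM. *Gins4*, a subunit of the replicative helicase, rose from 22.4, 21.1 and 25.4 to 31.7, 44.1 and 34.7 CPM, and *Rfc4*, a subunit of the clamp loader, from 4.77, 6.42 and 8.29 to 10.5, 19.4 and 11.9 CPM. In TPM, *Gins4* was at 64.6 ± 3.14 in YT-FF and 64.2 ± 6.45 in YT-AKO (mean ± SD, n = 3). *Rfc4* overlapped on that scale, with YT-FF 3 at 19.5 TPM and YT-AKO 1 at 19.0 TPM.

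Of 39 further mitosis genes, 1 rose and 1 fell, 2.56% each way against 12.6% and 9.01% of all tested genes. Their log2 fold changes were positive for 7 and negative for 32, with a median of -0.43. *Kif11*, a spindle motor, fell from 10.9, 16.8 and 14.4 to 8.66, 6.90 and 4.85 CPM (log2 fold change -1.04, adjusted p = 0.0379, edgeR with Benjamini-Hochberg adjustment). *Pttg1*, securin, rose from 29.6, 25.7 and 28.9 to 51.0, 122 and 45.4 CPM (log2 fold change 1.37). *Ncapg*, a condensin subunit, and *Cdc25b*, a phosphatase that activates CDK1, had log2 fold changes of -1.09 and -0.54 and did not pass the test. For 9 of the 39 genes every YT-AKO library lay below every YT-FF library, and for 1 it lay above, 23.1% and 2.56% of the list against 25.8% and 25.7% of all tested genes.

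Since *Cdkn1a* is a p53 target, 25 genes of p53 response and cell cycle arrest were read beside it. Of these, 2 rose (8.0%) and 1 fell (4.0%), both shares below those of all tested genes (12.6% and 9.01%). DESeq2 called 5 of the 25 higher and 1 lower, where it called 16.2% and 12.6% of its tested genes. Every YT-AKO library lay above every YT-FF library for 8 genes (32%) and below for 4 (16%). The shares of all tested genes were 25.7% and 25.8%. Log2 fold changes were positive for 15 and negative for 10, with a median of 0.15. The genes named next are those with the smallest p in edgeR's test. *Gadd45g*, a stress-induced arrest gene, rose from 14.0, 26.9 and 45.3 to 122, 278 and 87.8 CPM (log2 fold change 2.50, adjusted p = 0.0245, edgeR with Benjamini-Hochberg adjustment), and *Phlda3*, an inhibitor of AKT, from 236, 239 and 229 to 315, 435 and 567 CPM. In TPM the groups overlapped for *Phlda3*, with YT-FF 2 at 605 TPM above YT-AKO 1 at 563 TPM. *Mdm4*, an inhibitor of p53, fell from 255, 240 and 204 to 153, 118 and 111 CPM. *Bax*, a promoter of apoptosis, had 34.4, 31.1 and 34.9 CPM against 54.0, 108 and 45.1 CPM and did not pass the test (log2 fold change 1.05).

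Marker genes of the cell types in the tissue were summed in each library. The counts of markers called stand beside 12.6% of all tested genes called higher and 9.01% called lower. Adipocyte markers summed to 12569 to 18303 CPM in YT-FF and 21392 to 35293 CPM in YT-AKO, with 3 of 8 called higher. *Fabp4*, the most abundant of them, had 4344, 4072 and 7199 CPM against 9159, 20229 and 10204 CPM. *Adipoq* itself had 1474, 1473 and 1999 CPM against 1939, 2402 and 2334 CPM, with overlap, and was not called. Of 10 B cell markers, 6 were called lower, and their sum was 1413 to 1695 CPM in YT-FF and 816 to 1147 CPM in YT-AKO with none at 0. *Cd22*, an inhibitory receptor of B cells, had 239, 248 and 195 CPM against 97.5, 84.2 and 101 CPM. *Cd79a* (208, 212 and 193 against 159, 241 and 155 CPM) and *Cd79b* (184, 195 and 182 against 124, 284 and 122 CPM) overlapped and were not called. Germinal center B cell markers, from dividing B cells, had 0 of 6 called and sums of 72.6 to 156 CPM against 70.1 to 113 CPM.

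Macrophage markers summed to 491 to 564 CPM in YT-FF and 841 to 1152 CPM in YT-AKO (3 of 8 higher), and brown and beige fat markers to 157 to 223 CPM against 1603 to 3444 CPM (5 of 6 higher). T cell markers (426 to 664 against 368 to 808 CPM, 2 of 10 lower), endothelial markers (658 to 672 against 531 to 637 CPM, 1 of 7 lower), progenitor and fibroblast markers (3961 to 4970 against 4685 to 7397 CPM, 2 of 8 higher and 1 lower) and Schwann cell markers (245 to 312 against 200 to 299 CPM, 0 of 5) were also summed. Mammary epithelial markers stayed at 3.66 to 5.10 CPM in YT-FF and 3.84 to 4.88 CPM in YT-AKO, and *Krt5* was at 0 in all 6 libraries. The part of these cell types in the levels of the cell cycle genes was not tested.

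**Figure D4:**
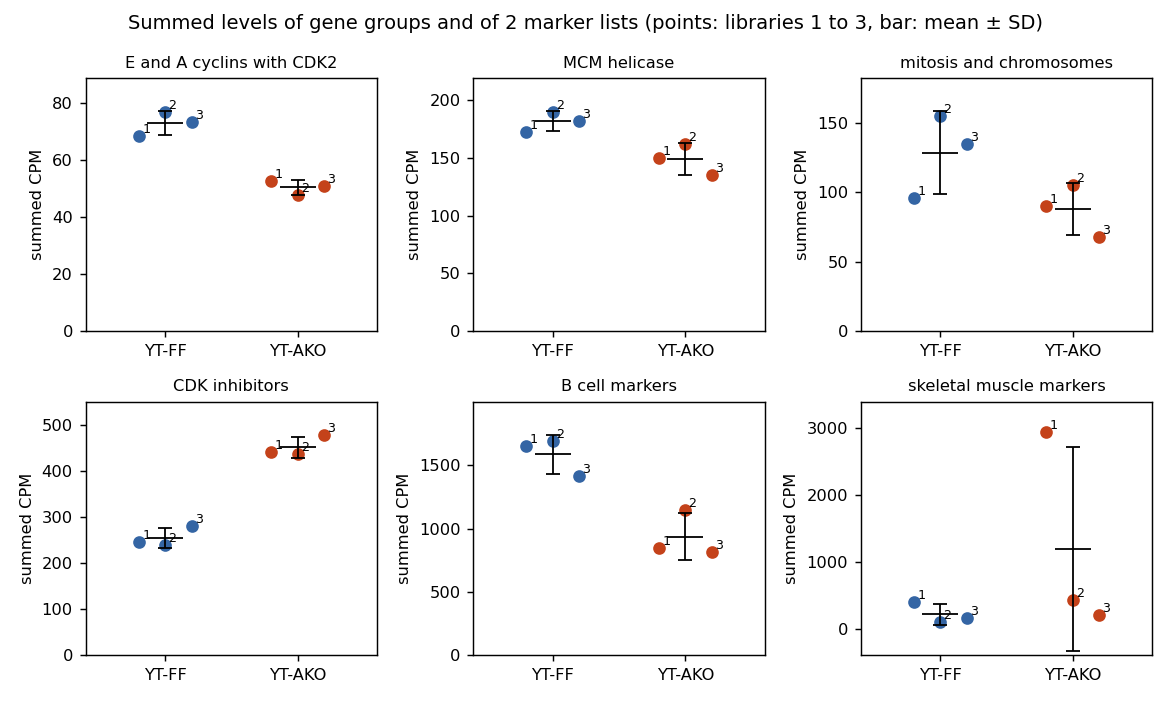
Summed CPM of 4 groups of the 37 genes and of 2 marker lists, by library, with points for libraries 1 to 3 and bars for mean ± SD (n = 3). CDK inhibitors lie at 239 to 280 CPM in YT-FF and 437 to 478 CPM in YT-AKO, B cell markers move the other way, and the muscle markers of YT-AKO 1 stand at 2951 CPM.

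How firmly the calls hold depends on single libraries. Without YT-FF 1 or YT-FF 2, none of the 37 genes passed edgeR's test after Benjamini-Hochberg adjustment, while 2 were higher and 12 or 6 lower at an unadjusted p under 0.05. Of all tested genes, 0 were then called without YT-FF 1 and 2 without YT-FF 2, so this loss extended to the whole comparison. Without YT-FF 3 or YT-AKO 3, *Cdkn1a* and *Cdkn2c* passed and 0 genes fell, and without YT-AKO 1 *Cdk2* and *Rrm2* were lost. Without YT-AKO 2 all 7 calls held and more of the 37 genes fell. Calls among all tested genes also shifted with the library left out, so these added calls are not read as particular to the 37 genes. The signs of all 7 held in each fit, with log2 fold changes from 1.70 to 2.59 for *Cdkn1a*, from 0.94 to 1.30 for *Cdkn2c* and from -1.19 to -0.88 for *Top2a*.

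The tool and the treatment of gene length moved the counts as well. DESeq2, which called 16.2% of its tested genes higher and 12.6% lower, called 2 of the 37 genes higher and 9 lower, adding *Bub1b*, *Ccnd1*, *Ccnb1* and *Mcm4*. The calls of *Cdk2*, *Cdkn1b* and *Rrm2* ended with no filter on low counts, and that of *Cdk2* also with limma-voom and with robust estimation. Fold changes were related to the summed exon length of genes, with a Spearman's rho across genes of -0.338 over the 37 genes and -0.376 over all tested genes, which share these libraries and are not independent replicates. With an offset for length in each library, *Cdkn1a* and *Cdkn2c* still rose and *Rrm2* alone still fell, while the adjusted p of *Cdkn1b*, *Foxm1*, *Top2a* and *Cdk2* went to 0.0520, 0.0584, 0.0660 and 0.115 (edgeR with Benjamini-Hochberg adjustment). Their log2 fold changes were then -0.51, -0.76, -0.66 and -0.33. The median of the 37 genes was then -0.21 against 0.02 for all genes, and with scaling by library totals alone it was -0.74 against -0.34. Signs of genes that did not pass the test turned in these fits, for *Ccnd2*, *Ccnd3*, *Cdk6*, *Rrm1*, *Cenpf* and *Aurka* with the length offset and for *Cdk1*, *Mcm7*, *Pcna*, *Tyms* and *Aurka* with library totals.

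**Figure D5:**
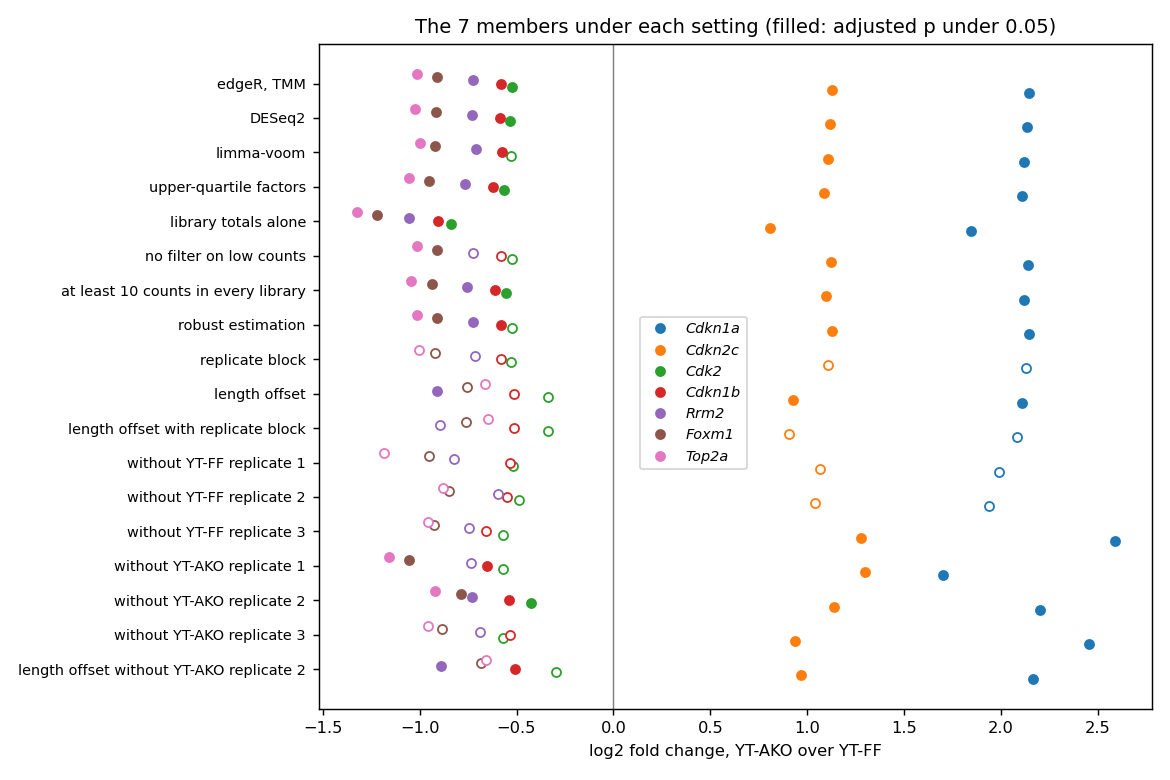
Log2 fold change of the 7 genes that passed the test, under each setting named on the vertical axis, filled where the adjusted p was under 0.05. *Cdkn1a* and *Cdkn2c* stay right of 0 and the other 5 left of it in each setting, and all points are open in both fits with the replicate block and without YT-FF 1 or 2.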

How the data were processed

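Paired-end RNA-seq of scWAT was available for 3 mice of each genotype, YT-FF and YT-AKO, and libraries were grouped by the genotype in their labels. The authors aligned the reads to mm10 with HISAT2 and assigned fragments to exons of GENCODE vM25 with featureCounts 2.0.1. The deposited values are raw counts per gene from 6 libraries, neither normalized nor filtered. Counting ignored strand and dropped fragments with more than 1 position or gene, so genes with overlapping exons or close copies lost counts. Of 55401 gene identifiers, 55141 matched the annotation used for symbols. Positions and exon overlaps come from the exon coordinates in the deposited count files, and copies of a gene were sought in GENCODE vM21 transcripts.

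Counts were tested with edgeR 4.0.16 in R 4.3.3, with TMM factors, filterByExpr (minimum count 10, minimum total 15) and the quasi-likelihood test, adjusted by Benjamini-Hochberg over 16807 genes. The biological coefficient of variation was 0.288. The study used DESeq2, which served here as an alternative (version 1.42.0), beside limma-voom (3.58.1), upper-quartile factors, library totals, other filters, robust estimation, a stricter threshold, an offset for gene length (a spline with 6 degrees of freedom per library), the replicate number as a block, and each library left out. The length offset without YT-AKO 2 was added after seeing the data. TPM used summed exon lengths. Single ratios were compared with exact permutation tests. The edgeR, DESeq2 and limma fits were tested on simulated data. P-values measure the spread between libraries of 3 mice per group. In these libraries 3 counts correspond to 0.128 to 0.177 CPM, and this limit covers counting error alone, since fragments carry no molecular identifiers.

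The genes and lists were chosen with earlier results of these data known. The text names all 37 genes, the 4 genes with the smallest edgeR p of each further list, the 2 most abundant markers of a marker list that moved with them, and the targeted genes. A gene that this rule names is not reported here. Other named genes (*Adipoq*, *Fabp4*, *Cd79a*, *Cd79b*, *Krt5* and genes that overlap or copy a listed one) and the ratios were chosen after their values were seen. Promoter windows were taken from RefSeq (GRCm38.p6). Whether same-numbered libraries of both groups deviated together was checked by correlating their deviations from the group means, which gave 0.139, -0.134 and -0.0911, so they were not treated as pairs.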

Additional observations from a re-analysis of the deposited data

How the results depend on the processing

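Of the 36 genes fitted in all 16 alternatives, 25 kept their sign in each and 11 turned in at least 1, and *Cdkn2a* kept its sign in the 15 that fitted it. With 3 libraries a group, differences of the size of the *Mcm* genes lie near the limit of the test, and the sparsest gene, *Cdkn2a*, had 7 counts in a library. The causes of the changes below were not tested.

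The counts called higher and lower among the 37 genes were 2 and 5. They were 2 and 9 with DESeq2, 2 and 13 with library totals, 2 and 3 with no filter, 2 and 1 with the length offset, and 2 and 8 with the length offset without YT-AKO 2. With each library left out they ranged from 0 to 2 and from 0 to 13. With a stricter threshold (log2 fold change beyond 1, adjusted p under 0.01) they were 0 and 0 (edgeR, 3 and 12 at an unadjusted p under 0.05). The median log2 fold change moved from -0.38 to -0.74 with library totals and to -0.21 with the length offset, and ranged from -0.43 to -0.27 with a library left out.

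Of the further lists, called genes in either direction numbered 2 for mitosis, 4 for replication, 4 for RB, E2F and DREAM, and 3 for p53 and arrest. Library totals gave 8 for mitosis, the length offset 0 for mitosis and 2 for replication, DESeq2 and no filter each 6 for p53, and the strict threshold 0 for each list. Leaving out a library gave 0 to 4, 0 to 7, 0 to 7 and 0 to 7. Of all genes, 2121 were higher and 1515 lower, against 1137 and 2828 with library totals, 1638 and 785 with the length offset, 15 and 6 at the strict threshold, and 0 to 2925 and 0 to 2424 with a library left out.

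The replicate numbers did not pair the libraries. With the replicate block, 0 of the 37 genes were called (edgeR, 2 higher and 10 lower at an unadjusted p under 0.05), 0 in each further list, and 24 higher and 9 lower of all genes. The block with the length offset gave 0 (2 and 9 at an unadjusted p under 0.05), 0 in each list, a median of -0.25, and 34 and 13 of all genes.

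Signs turned for genes that did not pass the test. With the length offset, log2 fold changes were 0.28 for *Ccnd2*, 0.31 for *Ccnd3*, 0.043 for *Cdk6*, 0.22 for *Rrm1*, 0.11 for *Cenpf* and -0.20 for *Aurka*, and with the replicate block added 0.28, 0.29, 0.044, 0.22, 0.082 and -0.23. With library totals they were -0.14 for *Cdk1*, -0.23 for *Mcm7*, -0.030 for *Pcna*, -0.20 for *Tyms* and -0.28 for *Aurka*. *Aurka* was at -0.019 with upper-quartile factors and -0.0076 with at least 10 counts in every library. With a library left out, *Aurka* ranged from -0.18 to 0.20, *Cdk1* from -0.15 to 0.40, *Ccnd3* from -0.17 to 0.21, *Ccnb2* from -0.22 to 0.11 and *Mcm7* from -0.019 to 0.21.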
